A study of Mus musculus with 4 samples.

Results

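Vps13a, Vps13c and Abca1 encode proteins that move lipids across or between membranes, and they were followed here by the ribosome footprints on their mRNAs. They are 3 of the 63759 transcript rows in the deposited count tables: uc008gwv.2 (Vps13a, 3157 codons), uc009qms.1 (Vps13c, 3739 codons) and uc008swu.1 (Abca1, 2252 codons). The rows were selected on their wortmannin against control values in these same libraries, so that contrast is given for them as a description, with no test. All 3 passed the filter on low counts, as did 26602 rows in all.

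The cells were mouse embryonic fibroblasts of strain C57BL/6, wild-type in genotype, grown to confluence. Every culture, controls included, was synchronised with Dex (dexamethasone, a glucocorticoid that aligns the circadian clocks of cultured cells) and moved 24 h later from 35 °C to 38.5 °C, with or without wortm. The series title gives the compound as 17β-hydroxy wortmannin, an inhibitor of phosphoinositide 3-kinase (PI3K), the lipid kinase upstream of AKT and mTORC1. Control and wortmannin groups had 2 libraries each, and how the labels' independent experiments map to them is not stated. Errors here thus rest on the spread between these libraries. Cell passage, embryo number and age are not stated.

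Proteins of the VPS13 family are long, rod-shaped molecules with a hydrophobic groove. They bridge the membranes of adjoining organelles and let phospholipids pass between them. VPS13A works at contacts of the endoplasmic reticulum with mitochondria and lipid droplets, and its loss causes the neurodegenerative disease chorea-acanthocytosis. VPS13C works at contacts with late endosomes, lysosomes and lipid droplets, and its loss causes an early-onset form of Parkinson's disease. ABCA1 is a pump of the plasma membrane that hands cholesterol and phospholipid to apolipoprotein A-I, the first step in making high-density lipoprotein. Its gene is a classical target of the sterol-sensing liver X receptors, and its loss causes Tangier disease.

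The files give row IDs and coding lengths but no gene names, so each name rests on length. Deposited lengths lay 9 codons below annotated ones: with 9 subtracted, 94.5% of 1466 rows over 1500 codons had the length of a complete coding transcript in GENCODE M21, against 59.1% to 64.1% for every other shift from 0 to 20. Annotated lengths of 3166, 3748 and 2261 codons each belonged to 1 gene alone, and 1 deposited row had each of them. Neighbouring lines gave a further check. Near Vps13a 14 of 26 neighbours had the length of a gene within 1000000 bp of it, near Abca1 13 of 26, and near Vps13c 4 of 13, so the name of Vps13c has the least support beyond its length.

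On GRCm38 the matching Vps13a transcript runs on the minus strand of chromosome 19 from 16615686 to 16780927, with 72 coding exons. Vps13c lies on the plus strand of chromosome 9 from 67840396 to 67995638, with 85 coding exons. Abca1 lies on the minus strand of chromosome 4 from 53030787 to 53159895, with 49 coding exons. Footprints were counted on these exonic coding sequences as far as the deposited length in codons shows.

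The start of an mRNA is shown because PI3K acts on mTORC1, which controls translation of mRNAs that begin with a C and a run of pyrimidines, the 5′ terminal oligopyrimidine (TOP) motif. These are the first 20 bases of the matching GENCODE M21 transcripts, with any run of at least 8 pyrimidines in capitals:
Vps13a: ggctaCCTTCCTTCTgtggg
Vps13c: CTCCTCCCTCTCCCgcctcc
Abca1: agtaattccgagggcgagcg

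Vps13c began with 14 pyrimidines in a row and matched a C followed by 4 pyrimidines at the first base. Vps13a held a run of 10 pyrimidines from base 6 but did not begin with one, and the longest run in Abca1 was 4. Of 21500 genes, read by their longest complete coding transcript on the mRNA strand, 2.34% began with a C and 4 pyrimidines and 6.38% held a run of at least 8 within 20 bases. Both motifs can overlap, as they did in Vps13c. Annotated starts are a coarse guide: of 80 ribosomal protein genes, the best known TOP mRNAs, 10% began with a C and 4 pyrimidines and 22.5% held such a run. The RefSeq start of Vps13a lay 6 bases from the GENCODE one and that of Abca1 0 bases; the Vps13c start was not checked against a second annotation. A match describes these letters only, and control through them was not tested.

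The context of the start codon, where scanning ribosomes begin, is shown with the codon in capitals:
Vps13a: ggaaaaaaaATGg
Vps13c: gtccccgccATGg
Abca1: tgtggtgacATGg

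Each of the 3 has a purine 3 bases before the start codon and a G directly after it, the core of the mammalian Kozak consensus. Both features were found together in 41% of 20046 genes.

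Library totals were 15376778 and 31110420 counts for controls and 7677780 and 7485868 for wortmannin, so the control values rest on more footprints. CPM is a count per 1000000 counts of the library, scaled by its TMM factor, and these factors lay between 0.972284 and 1.01473. Across rows, the correlation of log2 CPM was 0.9934 in the control pair, 0.9692 in the wortmannin pair and 0.9208 to 0.9432 between groups. Of 11 fibroblast markers 4 could be named and tested: Fn1 at 15123 ± 506 CPM in controls (SD, n = 2), Col5a1 at 1450 ± 28.4, Col6a3 at 677 ± 26.0 and Fbn1 at 328 ± 1.08. Fn1, Col6a3 and Fbn1 were higher with wortmannin (edgeR, adjusted p under 0.05) and Col5a1 did not pass. Few markers of other cell types could be named and tested. They were 1 of 6 endothelial, 1 of 5 epithelial, 1 of 6 muscle and 1 of 5 neural markers. For macrophages it was 0 of 5 and for adipocytes 0 of 4. Stab2 (endothelial), Col17a1 (epithelial) and Myh7 (muscle) were at 1.36 to 2.98 CPM in controls and the neural marker Nes at 15.7. None of these markers passed the test. Their part in the results was not tested. In a bulk measurement, fewer cells carrying an mRNA and less of it per cell cannot be told apart. Nor can an mRNA level and its translation, since mRNA libraries were not analysed here.

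Vps13a and Vps13c carried fewer footprints with wortmannin, and Abca1 carried more. Vps13a was at 0.59 of its control level, Vps13c at 0.675 and Abca1 at 1.81, while the median log2 fold change of all rows tested was 0.00. In all 3 the wortmannin libraries lay on one side of both control libraries. That is common in these data: both wortmannin libraries lay below both controls in 34.9% of all rows tested and above them in 34.1%. Of all rows, 33.1% passed at an adjusted p under 0.05 (edgeR quasi-likelihood test, Benjamini-Hochberg), 15.8% higher and 17.3% lower. Since the members were chosen from this contrast, nothing is read from those shares.

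Vps13a, the bridge to mitochondria, had 431 and 824 footprints in control replicates 1 and 2, which is 27.7 and 26.3 CPM. In wortmannin replicates 1 and 2 it had 116 and 122, or 15.6 and 16.2 CPM. The pair within each group agreed closely, and the control intervals from counting error (25.1 to 30.4 and 24.6 to 28.2 CPM, exact Poisson, 95%) stayed clear of those with wortmannin (12.9 to 18.7 and 13.5 to 19.4). Its mean went from 27.0 ± 0.942 to 15.9 ± 0.47 CPM (SD, n = 2). The log2 fold change was -0.76 ± 0.12 (SE), and the 4 ratios of a wortmannin to a control library ran from -0.83 to -0.70 on the log2 scale. Here as below, such intervals cover counting error only, since PCR copies were not marked by molecular identifiers as far as the labels say. Nor do they test the contrast, on which the genes were chosen.

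Vps13c, the bridge to lysosomes, was nearly level with Vps13a in controls, with 420 and 813 footprints, or 27.0 and 26.0 CPM. With wortmannin it had 144 and 123 footprints, or 19.3 and 16.4 CPM. The groups did not overlap, but the wortmannin libraries differed more for Vps13c (0.24 on the log2 scale, replicate 1 the higher) than for Vps13a (0.06, replicate 2 the higher). Counting intervals of the wortmannin libraries overlapped, at 16.3 to 22.7 and 13.6 to 19.5 CPM. Means were 26.5 ± 0.691 and 17.8 ± 2.09 CPM (SD, n = 2). The fold change was -0.57 ± 0.13 (SE) on the log2 scale, and library ratios ran from -0.72 to -0.43.

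Abca1, the cholesterol exporter, had 920 and 1773 footprints in controls, or 59.1 and 56.7 CPM. With wortmannin it had 853 and 712 footprints, or 114 and 94.7 CPM. Wortmannin replicate 1 was the higher of its pair, with counting intervals of 107 to 122 and 87.9 to 102 CPM that did not meet, so this pair differed by more than counting error. The lower of the 2 still lay far above both controls. Means were 57.9 ± 1.69 and 105 ± 14.0 CPM (SD, n = 2), the log2 fold change was 0.85 ± 0.12 (SE), and library ratios ran from 0.68 to 1.01.

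**Figure D1:**
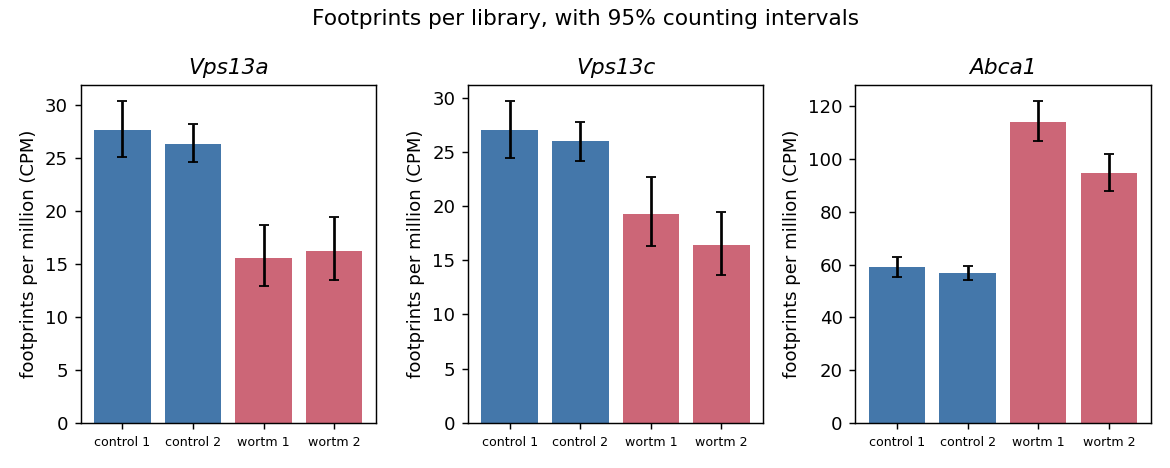
Footprints of Vps13a, Vps13c and Abca1 in each library, in CPM, as bars with exact 95% Poisson intervals for counting error (control libraries blue, wortmannin libraries red). Vps13a and Vps13c are near 26 to 28 CPM in controls and 16 to 19 with wortmannin, while Abca1 goes from below 60 to above 90.

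Levels of different genes can be compared only per coding length. In controls Abca1 had 25.7 ± 0.751 CPM per 1000 codons, Vps13a 8.55 ± 0.298 and Vps13c 7.08 ± 0.185 (SD, n = 2). With wortmannin these densities were 46.4 ± 6.20, 5.04 ± 0.149 and 4.77 ± 0.56. Abca1 was the densest in every library. Vps13a was above Vps13c in both control libraries, at 8.76 and 8.34 against 7.21 and 6.95. With wortmannin the order of these 2 was not settled, at 4.93 and 5.14 against 5.17 and 4.38.

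Among rows of similar length (within 20%, distinct counts), the density of Vps13a stood at the 50th percentile in both control libraries and at the 27th and the 25th percentile with wortmannin. Vps13c went from percentile 47.7 in both controls to 33.8 and 26.2. Abca1 went from 75.9 and 76.1 to 87.5 and 84.0. The VPS13 genes were thus middling among long coding sequences in control cells, and Abca1 already stood in their upper part.

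Ratios of counts within a library depend on no normalization. The Vps13a to Vps13c ratio was 1.03 and 1.01 in controls and 0.806 and 0.992 with wortmannin, and the exact 95% intervals of all 4 libraries overlapped (the widest, 0.766 to 1.28). Abca1 to Vps13a was 2.13 and 2.15 in controls and 7.35 and 5.84 with wortmannin. Its highest control bound was 2.40 and its lowest wortmannin bound 4.81. Abca1 to Vps13c was 2.19 and 2.18, then 5.92 and 5.79. The ratio of the VPS13 genes was lowest in wortmannin replicate 1, and counting error was too wide to tell whether it changed. Abca1 drew away from both in each wortmannin library. The genes were chosen on this contrast, so that separation is a description and not a test.

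**Figure D2:**
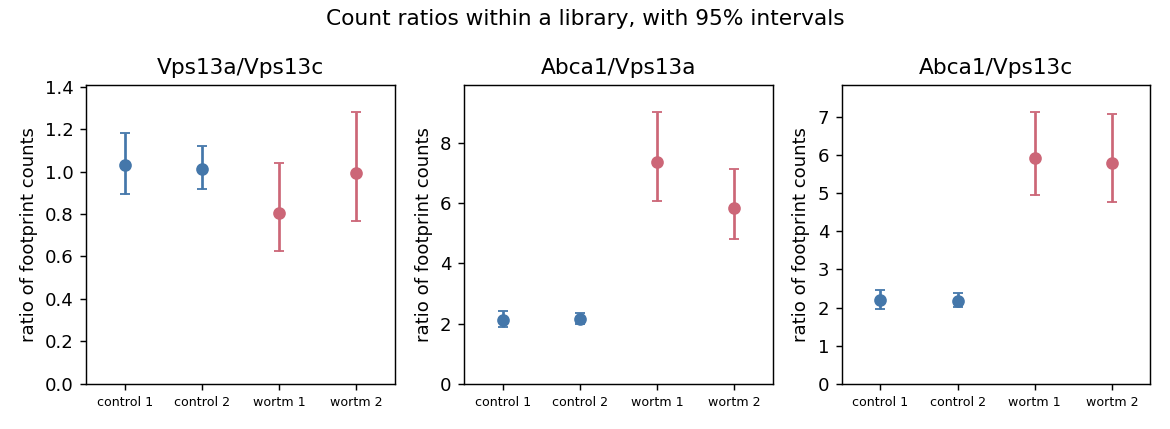
Ratio of footprint counts between 2 genes within each library, as points with exact 95% binomial intervals for counting error (control libraries blue, wortmannin libraries red). Vps13a to Vps13c lies between 0.806 (wortmannin replicate 1) and 1.03 (control replicate 1), with intervals that overlap in all 4 libraries. Abca1 to either VPS13 gene is near 2 in controls and between 5.79 and 7.35 with wortmannin.

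Long coding sequences as a class shifted upward with wortmannin, so each gene was also set against rows of similar length. Around Vps13a, 147 rows of 2526 to 3788 codons had a median log2 fold change of 0.27. Of these rows 33.3% were higher and 4.08% lower at an adjusted p under 0.05 (edgeR, Benjamini-Hochberg). Vps13a lay 1.03 below their median, and 1 of the 147 was lower still. Both wortmannin libraries were below both controls in 14 of these rows, or 9.52%, and above them in 61.2%. Vps13c, chosen on the same contrast, was 1 of the 147 rows and enters these shares.

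Vps13c was surrounded by 64 rows of 2992 to 4486 codons with a median of 0.41, of which 40.6% were higher and 1.56% lower. It lay 0.98 below that median, and the 1 row beneath it was that of Vps13a. Both wortmannin libraries were below both controls in 3 of the 64. Vps13a, chosen on the same contrast, was 1 of the 64 and enters these shares. Vps13a and Vps13c were thus the lowest and the second lowest in this range of length, a rank read from the values they were chosen on.

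Abca1 moved the same way as its neighbours in length, but further. Its 455 rows of 1802 to 2702 codons had a median of 0.19, with 30.1% higher and 7.47% lower. Abca1 lay 0.66 above the median, and 24 of the 455 were higher. Among 202 rows within 10% of its length, 7 were higher. Among the 126 rows within 20% whose mean CPM over all libraries was also within 2-fold of its own, 1 was higher. Several isoforms of 1 gene can be among such rows, so they are not independent of each other.

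**Figure D3:**
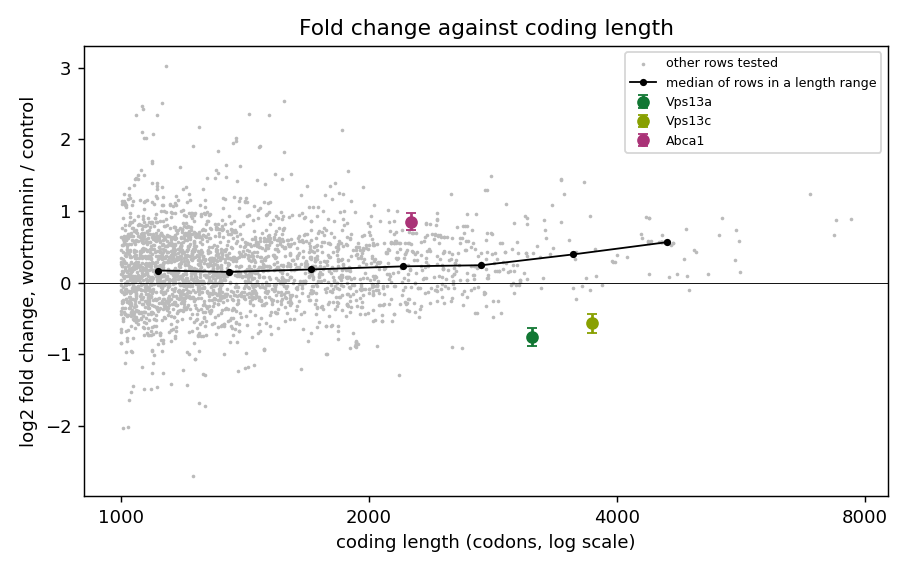
Log2 fold change (wortmannin over control) of each tested row with distinct counts and at least 1000 codons against its coding length on a log axis, with the median in successive length ranges (black line) and Vps13a, Vps13c and Abca1 with their SE. The black line rises with length; Vps13a (-0.76) and Vps13c (-0.57) lie beneath it and Abca1 (0.85) above it.

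**Figure D4:**
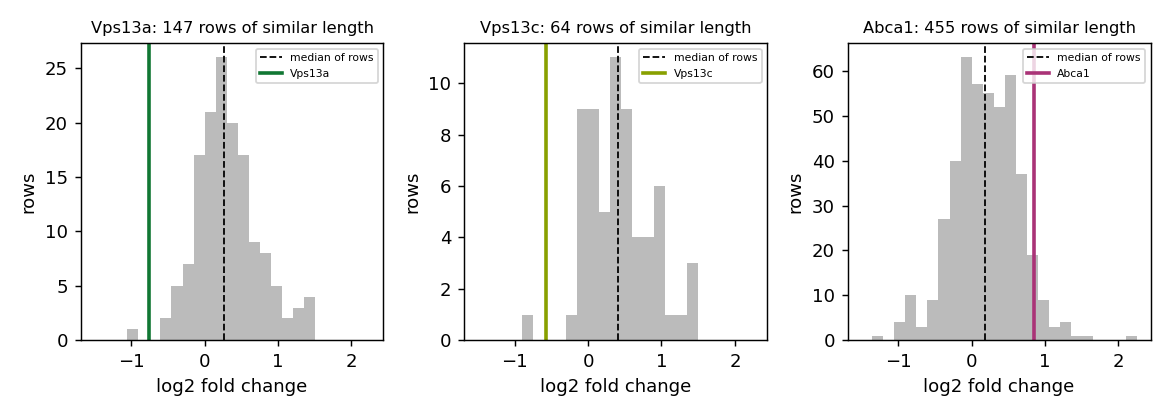
Number of rows of similar coding length (within 20%) by log2 fold change, for Vps13a, Vps13c and Abca1, with the median of the rows (dashed) and the gene itself (coloured line). Vps13a and Vps13c stand at the lower edge of their distributions, 1.03 and 0.98 below the medians, and Abca1 in the upper part of its own.

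Base composition differed among the 3. The third codon positions of Vps13a were 36.6% G or C, at percentile 7.41 of 162 genes of similar length, against 50.4% in Vps13c (percentile 45.5 of 101) and 63.6% in Abca1 (percentile 68.4 of 430). Across 219 other named genes, Spearman's rho between this share and the log2 fold change was 0.0789, a description across genes measured in the same libraries. The 36 named genes within 5 percentage points of Vps13a had a median log2 fold change of 0.25, and 1 of them was below Vps13a. For Vps13c the median of 50 such genes was 0.31, with 1 below it. For Abca1 it was 0.18 over 63 genes, 54 of them below Abca1. All 3 genes had many exons for their length: 72 in Vps13a against a median of 42, 85 in Vps13c against 61, and 49 in Abca1 against 35.

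Of 106 genes in 6 lists of lipid transport and related functions, 13 besides the 3 members could be named and tested. Of these 4 rose and 1 fell (edgeR, Benjamini-Hochberg adjusted p under 0.05), with a median log2 fold change of 0.29. Among all 220 named genes other than the members, which are long ones, 34.1% rose and 4.55% fell, with a median of 0.24. The counts of the lipid genes were thus near the background of long genes. With DESeq2 3 of the 13 rose and 0 fell. Calls lost or gained with 1 library left out are given with each gene. In those fits the spread comes from the group that kept both libraries. A changed call can therefore occur where the gene's own value hardly moved.

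Other bridge-like lipid transfer proteins did not share the direction of Vps13a and Vps13c in any of the 3 that were tested. Atg2a, which feeds lipid to the growing autophagosome, had 21.5 and 16.7 CPM in controls and 28.9 and 31.4 with wortmannin. It rose by 0.67 ± 0.15 on the log2 scale (edgeR, Benjamini-Hochberg adjusted p = 0.00857), a call lost without control replicate 2 (0.48, adjusted p = 0.19). 4932438A13Rik, the largest of this family, had 22.1 and 25 CPM and then 29.8 and 33.8, a rise of 0.43 ± 0.12 (edgeR adjusted p = 0.0277). That call was lost without control replicate 1 (0.34, adjusted p = 0.335), without control replicate 2 (0.52, adjusted p = 0.16), in DESeq2 (adjusted p = 0.115) and with no filter on low counts (adjusted p = 0.0571).

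Vps13b, the family member of the Golgi, was at 31.9 and 31.6 CPM in controls and 35.3 and 42.4 with wortmannin. Its value of 0.29 ± 0.12 did not pass (edgeR adjusted p = 0.0938) but did without wortmannin replicate 1 (0.41, adjusted p = 0.000409). Per 1000 codons the 3 VPS13 genes were close in controls, with Vps13b at 7.97 ± 0.0581 CPM between Vps13a and Vps13c. With wortmannin it was at 9.76 ± 1.27, above both. The difference in response between Vps13b and the other 2 was not tested. Under a looser rule for names Atg2b, the paralog of Atg2a, also rose, from 23.3 and 24.2 to 36.1 and 49.9 CPM (0.85 ± 0.15, edgeR adjusted p = 0.00338).

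In the ABCA family of lipid pumps 2 others were tested and neither passed in edgeR or in DESeq2; neither had an unadjusted p under 0.05 in edgeR. Abca2, an exporter of endosomes and lysosomes, was at 36.0 and 32.7 CPM in controls and 27.5 and 39.1 with wortmannin, so its groups overlapped (-0.04 ± 0.16, edgeR adjusted p = 0.865). Abca9 was at 8.73 and 8.92, then 9.26 and 12.8 (0.32 ± 0.17, edgeR adjusted p = 0.182). Each passed with 1 wortmannin library left out: Abca2 without replicate 2 (-0.30, adjusted p = 0.0332) and Abca9 without replicate 1 (0.52, adjusted p = 0.0118). A further 3 named ABCA genes had too few counts for the test. Of 16 other ABC transporters none (0) had a row that could be named.

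Among uptake receptors, Lrp1, which takes up apolipoprotein E-bearing particles and many other ligands, was abundant and had 1578 and 1518 CPM in controls and 2406 and 2483 with wortmannin. It rose by 0.66 ± 0.10 (edgeR adjusted p = 0.00199), but the call was lost when control replicate 1 (0.68, adjusted p = 0.0855) or 2 (0.63, adjusted p = 0.134) was left out. Lrp2, at 2.53 ± 0.40 and 3.75 ± 1.53 CPM, did not pass (0.52 ± 0.30, edgeR adjusted p = 0.209), but did without wortmannin replicate 2 (0.89, adjusted p = 0.0124).

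Of 4 genes of lipid synthesis and its control 0 passed in edgeR or in DESeq2, and 0 had an unadjusted p under 0.05 in edgeR. Fasn, fatty acid synthase, was at 230 and 224 CPM in controls and 189 and 242 with wortmannin. Acaca, which makes malonyl-CoA for it, was at 38.8 and 34.7, then 32.5 and 44.2. The nuclear receptor corepressor Ncor1 was at -0.09 ± 0.13 on the log2 scale. Acaca (0.27, adjusted p = 0.0226) and Ncor1 (-0.27, adjusted p = 0.0365) passed without wortmannin replicate 1, and Fasn (-0.26, adjusted p = 0.000562) without wortmannin replicate 2. Acacb, the paralog of Acaca, had 3 and 6 counts in controls and 4 and 8 with wortmannin, too few for the filter with every library kept. With no filter on low counts it did not pass (1.98, edgeR adjusted p = 0.0623). It was tested and passed without wortmannin replicate 1 (2.42, edgeR adjusted p = 0.00595).

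Both phosphoinositide genes tested under the main rule for names passed, in opposite directions. Under the looser rule Pik3c2a (0.31 ± 0.13, edgeR adjusted p = 0.104) and Pikfyve (0.22 ± 0.13, edgeR adjusted p = 0.219) did not pass. Pi4ka, the kinase that makes phosphatidylinositol 4-phosphate at the plasma membrane, had 31.1 and 29.0 CPM in controls and 22.7 and 19.0 with wortmannin. It fell by 0.52 ± 0.13 on the log2 scale (edgeR adjusted p = 0.0138). The call was lost without control replicate 1 (-0.48, adjusted p = 0.173), without control replicate 2 (-0.58, adjusted p = 0.111) and in DESeq2 (adjusted p = 0.0658). Zfyve26, a protein that binds phosphatidylinositol 3-phosphate, rose by 1.24 ± 0.13 (edgeR adjusted p = 0.000231), from 8.35 and 8.41 to 20.8 and 18.9 CPM, and kept its call with each library left out.

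**Figure D5:**
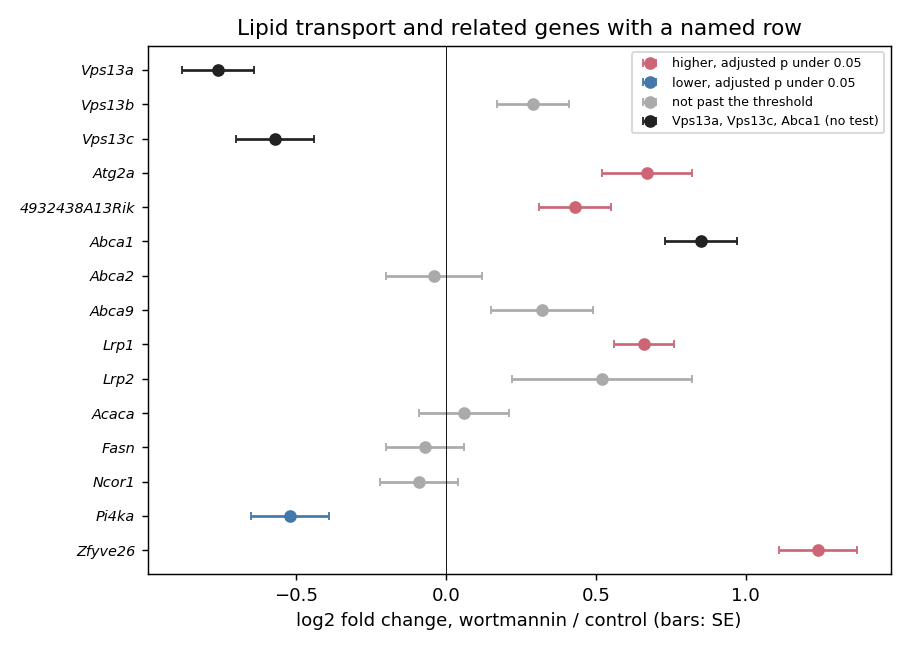
Log2 fold change (wortmannin over control) with its SE for 12 genes of the 6 lipid lists with a named and tested row, beside the 3 members; colour shows the edgeR call, and the members Vps13a, Vps13c and Abca1 (black) have no test. Of the 12, Pi4ka is the only one past the threshold on the lower side, and Vps13b, Atg2a and 4932438A13Rik lie above 0.

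Genes with the most similar profiles were sought among 222 named genes, by Euclidean distance between log2 CPM values centred on each gene's mean over the 4 libraries. Among the 3 nearest to Vps13a were the basement membrane protein Nid1 (distance 0.152) and the mTORC1 restrainer Tsc2 (0.154). For Vps13c they were Pi4ka (0.0557), Ltbp4 (0.135) and the nuclear pore protein Nup214 (0.137). For Abca1 they were Wdr81 (0.138; 27.2, 25.3, 56.2 and 47.6 CPM in control 1, control 2, wortmannin 1 and wortmannin 2), the microRNA pathway protein Tnrc6b (0.198) and the histone methyltransferase Kmt2d (0.215). With 4 libraries such likeness mainly restates the size of the difference between groups.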

How the data were processed

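Footprint counts per UCSC transcript row were deposited by the authors as whole numbers, with a coding length in codons, 1 table per library. Lengths were missing for 17340 rows, and those rows held 0% of the counts. Per the submitters' processing notes, CASAVA 1.8, STAR 2.7.0 and mm10 were used. How footprints were assigned to rows is not given in the sources. Members and gene lists were chosen with earlier results of these data known.

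Rows of all 4 libraries were fitted with edgeR 4.0.16 in R 4.3.3 (TMM, default filter with a minimum count of 10, quasi-likelihood F test, Benjamini-Hochberg adjustment, threshold 0.05). Each SE was derived as the absolute log2 fold change over the root of F. F draws on spread shared across rows, so an SE is not the spread of 1 gene's libraries alone. A row took a gene's name where its length (9 codons added) belonged to 1 gene in GENCODE M21 and a share of at least 0.5 of neighbouring rows (25 lines either side, at least 300 codons) matched in length a gene lying within 1000000 bp; 0.3 was the looser share, which Vps13c needed. The rule for named genes took the members, the tested genes of the 6 lists and the 3 nearest profiles of each member; some genes it took are not reported here. Rows with identical counts were counted once among rows of similar length. DESeq2 1.42.0, Python 3.11.15 and scipy 1.17.1 were also used. Alternatives were DESeq2, library totals, no filter, a replicate block, distinct counts, other windows of length and each library left out.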

Additional observations from a re-analysis of the deposited data

How the results depend on the processing

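The log2 fold changes of Vps13a, Vps13c and Abca1 kept their direction in the 9 alternative fits. In the 5 that kept all libraries they ran from -0.80 to -0.75, -0.60 to -0.56 and 0.82 to 0.86, and over all 9 from -0.80 to -0.73, -0.70 to -0.44 and 0.70 to 1.0. Their differences from rows of similar length kept their sign, at -1.13 to -0.98, -1.26 to -0.70 and 0.47 to 0.88. That of Vps13a was -1.13 with rows within 10% of its length and -1.11 with rows also within 2-fold of its CPM. With 1 library left out, that of Vps13c ran from -1.26 to -0.70 and that of Abca1 from 0.47 to 0.88. DESeq2 called 2302 rows higher and 2691 lower, against 4215 and 4596 with edgeR, and 0 lipid list genes lower against 1. With 1 library left out, rows called ran from 1269 to 5724 higher and 1853 to 6283 lower, and lipid list genes from 1 to 8 higher (Acacb, which the filter otherwise removed, among the 8) and 0 to 3 lower. In those fits the spread comes from the group that kept both libraries, and the single library left is taken to vary as much. With the replicate block 3729 rows were higher and 4134 lower, Vps13a was at -0.76, Vps13c at -0.57 and Abca1 at 0.85, and no lipid list call changed. The numbers are not stated to pair the libraries, and deviations of same-numbered libraries correlated at -0.05901. Vps13a and Vps13c rest on 116 to 144 footprints per wortmannin library. The causes of these shifts were not tested.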
